A study of Mus musculus with 18 samples.

Results

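The genes described here are 8 genes of cholesterol synthesis and of its control by the transcription factor SREBP2. They are Srebf2, Insig1, Hmgcs1, Idi1, Fdft1, Sqle, Lss and Cyp51, taken as a named list, and they are 8 of the 33440 genes to which reads were assigned. All 8 passed the filter on low counts in both experiments of the study.

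SREBP2, the product of Srebf2, is held in the endoplasmic reticulum by SCAP and the INSIG proteins while sterols are plentiful. When sterols fall, SCAP carries it to the Golgi, where proteases release the part that enters the nucleus and activates genes of cholesterol synthesis and uptake, Insig1 and Srebf2 among them. HMGCS1 acts early in the mevalonate pathway, IDI1 makes one of its isoprene units, FDFT1 (squalene synthase) and SQLE (squalene epoxidase) commit carbon to sterols, LSS closes the sterol rings and CYP51 demethylates lanosterol. Adipocytes store a large pool of free cholesterol and make part of it themselves.

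RNA was sequenced in 2 experiments with C57BL/6 mice, to find genes downstream of IRF3, a transcription factor of the innate immune response, in adipocytes. In the first, stromal-vascular fraction (SVF) cells of inguinal white fat (iWAT) from mice with the IRF3-2D allele (named IRF-2D in the labels) were differentiated into adipocytes, transduced on day 6 and harvested on day 8. The WT group received AAV-GFP and the FI3OE group AAV-GFP-Cre, with 3 libraries each. IRF3-2D is a constitutively active form of IRF3 that is made once Cre has acted, so WT cells carried the allele in silent form, and the presence of Cre is a further difference between the groups. The fat donors were 4 to 6 weeks old. In the second, RNA on ribosomes that carry a GFP tag made in adipocytes was purified (TRAP) from frozen epididymal fat (eWAT) of Ad-NuTRAP (WT, 6 libraries) and FI3KO-Ad-NuTRAP mice (FI3KO, 6 libraries), in which Adipoq-Cre removes floxed Irf3 from adipocytes. Both TRAP groups were on a high-fat diet for 8 weeks at thermoneutrality, and the study's methods give a starting age only for a longer diet.

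The libraries held between 21541218 and 40490163 assigned reads. Irf3 reads were higher in FI3OE than in WT SVF-derived adipocytes by 0.73 on the log2 scale. In TRAP the log2 fold change of the whole gene was -0.35 (edgeR adjusted p = 0.0198) in overlapping groups, -0.09 (edgeR adjusted p = 0.699) with protein-coding transcripts only, and 0.71 with an offset for transcript length, while its transcript Irf3-202 had 0 reads in the 6 FI3KO libraries against 164 to 388 in the WT ones. Replicates 1 and 2 of the TRAP experiment differed from replicates 3 to 6 in both genotypes. The counts of WT TRAP replicates 1 and 2 lay closer to each other (chi-square per degree of freedom 2.22, where sampling noise alone gives 1) than those of any other WT TRAP pair (8.36 to 142), so the results of replicates 1 and 2 and the differences between the sets are also given with both counted as 1 library. All 8 adipocyte markers were found in every group. Their summed level in WT TRAP was 24820 to 30080 CPM (reads of a gene scaled by the library total). It was 20260 to 22730 CPM in FI3KO TRAP, against 4590 to 4767 CPM in WT and 4900 to 5060 CPM in FI3OE SVF-derived adipocytes. Those cultures also held macrophage markers (10 genes, 2022 to 2148 CPM in WT and 1908 to 1933 CPM in FI3OE). They held fibroblast and progenitor markers as well (7 genes, 13440 to 13810 CPM in WT and 13660 to 13720 CPM in FI3OE).

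The promoter windows of 6 of the 8 genes, Srebf2, Insig1, Hmgcs1, Idi1, Lss and Cyp51, were matched in RefSeq (GRCm38.p6, the 250 bases before the start). They were searched on both strands for letters of the SREBP element (TCACNCCAC and the overlapping TCACCCCA), of the NF-Y box (CCAAT, read as ATTGG on the other strand), of the E-box (CACGTG) and of an IRF element (GAAA, any 2 bases, GAAA). The part of the window before the first exon annotated in GENCODE M21 is shown for the 3 genes with an SREBP element or an E-box, each on its own strand and with the matched letters in capitals. They are Hmgcs1 (chr13:119690101-119690350, + strand), Srebf2 (chr15:82147019-82147180, + strand) and Insig1 (chr5:28071162-28071362, + strand).
Hmgcs1: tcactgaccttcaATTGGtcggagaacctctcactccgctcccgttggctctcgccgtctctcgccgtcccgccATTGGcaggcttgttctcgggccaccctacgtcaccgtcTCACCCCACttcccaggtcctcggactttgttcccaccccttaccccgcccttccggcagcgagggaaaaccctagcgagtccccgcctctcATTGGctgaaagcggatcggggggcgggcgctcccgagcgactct
Srebf2: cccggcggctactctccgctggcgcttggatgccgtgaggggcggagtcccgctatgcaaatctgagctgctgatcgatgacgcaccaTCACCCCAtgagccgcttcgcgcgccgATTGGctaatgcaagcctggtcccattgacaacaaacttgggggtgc
Insig1: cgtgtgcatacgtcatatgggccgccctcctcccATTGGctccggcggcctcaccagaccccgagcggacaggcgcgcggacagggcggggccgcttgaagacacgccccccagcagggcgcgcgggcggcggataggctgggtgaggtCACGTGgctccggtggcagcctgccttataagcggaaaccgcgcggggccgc

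For Idi1 (chr13:8885549-8885577, + strand), Lss (chr10:76531531-76531559, + strand) and Cyp51 (chr5:4104710-4104738, - strand) the stretch around an NF-Y box is shown, since that was the only searched motif in their windows (Idi1 held 2). The boxes of Idi1 and Cyp51 lie before the RefSeq start but within the gene as annotated in GENCODE M21. That of Lss lies before the annotated gene.
Idi1: tgcctccagctgATTGGcgagcccgggca
Lss: ggtgatgctctgATTGGccgagctcgcat
Cyp51: cgctgtccgccaCCAATctggtcctgaga

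The NF-Y box, the binding sequence of a factor known to act beside SREBPs, was in 6 of the 6 windows and in 33.8% of the 32851 RefSeq promoter windows of that length. Hmgcs1 held 3 such boxes. The letters TCACNCCAC were in 1 of the 6 (Hmgcs1, 137 to 129 bases before the start) against 1.05% of all windows, and TCACCCCA was in 2 of the 6 (Hmgcs1 and Srebf2) against 1.34%. The E-box was in Insig1 only, against 6.02% of all windows. The letters of the IRF element were in 0 of the 6 and in 2.98% of all windows. These are matches of letters within the window and no measure of binding.

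The level of each gene in the WT groups was compared per transcript length, as TPM. In WT SVF-derived adipocytes Insig1 was the most abundant of the 8 at 542 ± 15.8 TPM (mean ± SD, n = 3). It was followed by Hmgcs1 (175 ± 8.13 TPM), Srebf2 (138 ± 7.14), Cyp51 (111 ± 6.99) and Lss (90.7 ± 2.82), each apart from its neighbours in every library. Fdft1 (69.0 ± 8.52 TPM), Sqle (60.1 ± 0.951) and Idi1 (59.1 ± 0.234) overlapped.

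In WT TRAP the order was another. Hmgcs1 led at 501.5 ± 56.2 TPM (SD, n = 6), with 442 to 578 TPM, and Insig1 came next at 288 ± 25.8 TPM, with 262 to 332 TPM. The next 5 genes, Idi1 (42.4 TPM), Lss (41.8), Srebf2 (40.4), Fdft1 (32.7) and Cyp51 (20.6), each overlapped with the next. Sqle had the lowest mean, at 10.2 ± 1.47 TPM, and lay below every library of Cyp51. Fdft1 was at 9.58 TPM in WT replicate 5, within the Sqle range of 8.21 to 11.47 TPM. Ranked by CPM, which is not corrected for length, 3 of the 8 genes kept their place in SVF-derived adipocytes and 4 in TRAP.

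**Figure D1:**
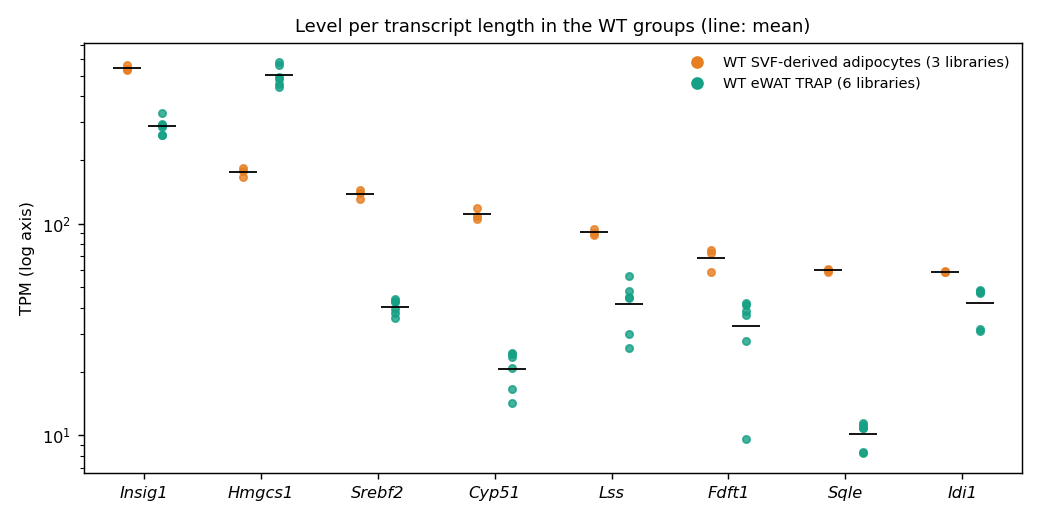
Level of each gene in the WT groups, in TPM on a log axis, with 1 point per library and a line at the mean (3 WT SVF-derived adipocyte libraries and 6 WT eWAT TRAP libraries). Hmgcs1 is higher in TRAP and the other 7 genes are higher in the cultured cells.

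No library of one WT group overlapped with the other for any of the 8 genes. The share of all genes without such overlap was not taken, so this sets the 8 apart from no other genes. Sqle was 5.92 times and Cyp51 5.38 times higher in the cultured adipocytes by mean TPM. The ratio was 3.42 for Srebf2, 2.17 for Lss, 2.11 for Fdft1, 1.88 for Insig1 and 1.395 for Idi1. By mean CPM the ratio of Fdft1 was 5.58. Hmgcs1 alone was higher in TRAP, by 2.87 times in TPM. Of 2 sterol genes outside the 8 compared in the same way, Insig2 was 1.48 times higher in TRAP and Srebf1 was 1.67 times higher in the cultured cells. Depot, culture, diet, the fraction of RNA taken and the other cell types in the cultures differ between these groups at once and cannot be told apart, so no test was made.

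The first comparison asked which of the 8 genes differed between FI3OE and WT SVF-derived adipocytes. Cyp51, Fdft1, Idi1, Hmgcs1 and Insig1 rose in FI3OE, by 1.08 to 1.61 times. None of the 8 was called lower, by edgeR or by the DESeq2 Wald test, and 0 of them had a negative fold change with an unadjusted p under 0.05. These are 5 of 8 genes with an adjusted p of 0.05 or less by quasi-likelihood in edgeR, adjusted after Benjamini and Hochberg over 16105 genes, of which 37.0% were called and 20.2% were called higher and 16.8% lower. The rise was below 2-fold for all 5, so 0 of 8 also reached 1 in absolute log2 fold change, as 3.62% of all genes did. The median log2 fold change of the 8 genes was 0.12, and that of all genes tested was -0.00. Marker sums also moved, with the adipocyte sum higher and the macrophage sum lower in every FI3OE library than in any WT one. The single markers were mixed. Of 8 adipocyte markers 2 were called higher and 3 lower, and of 10 macrophage markers 1 was higher and 2 lower. The part of these shifts in the sterol gene values was not tested.

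Late in the pathway, Cyp51 (chr5:4081145-4104746, - strand, GRCm38) read 155, 155 and 154 CPM in the WT libraries and 216, 203 and 217 CPM in FI3OE. Every FI3OE library lay above every WT library, a log2 fold change of 0.47 (SE 0.037, edgeR adjusted p = 1.94e-06). Fdft1 (chr14:63145150-63179578, - strand), at the branch to squalene, read 57.0, 82.9 and 76.6 CPM in WT and 118, 113 and 113 CPM in FI3OE. WT replicate 1 was the lowest, the groups did not overlap, and the log2 fold change was 0.68 (SE 0.102, edgeR adjusted p = 0.000287). Without WT replicate 1 it was 0.54.

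Idi1 (chr13:8885501-8892451, + strand), which interconverts the pathway's isoprene units, read 105, 103 and 103 CPM in WT and 139, 118 and 138 CPM in FI3OE. FI3OE replicate 2 was the lowest of its group and still above WT, with a log2 fold change of 0.36 (SE 0.056, edgeR adjusted p = 0.000377). Hmgcs1 (chr13:119690379-119708260, + strand), at the entry of the mevalonate pathway, read 295, 310 and 315 CPM in WT and 345, 315 and 339 CPM in FI3OE. The groups overlapped at WT replicate 3 and FI3OE replicate 2, and the log2 fold change was 0.14 (SE 0.044, edgeR adjusted p = 0.030). Insig1 (chr5:28071363-28078662, + strand), the sterol-regulated anchor of SCAP, read 717, 724 and 708 CPM in WT and 783, 725 and 780 CPM in FI3OE. The groups were separated by FI3OE replicate 2 lying just above WT replicate 2, and the log2 fold change was 0.11 (SE 0.036, edgeR adjusted p = 0.0377).

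The calls of Hmgcs1 and Insig1 were the less firm ones. Leaving out single libraries moved the edgeR adjusted p of Hmgcs1 to 0.0924 without FI3OE replicate 1, 0.0955 without FI3OE replicate 3, 0.108 without WT replicate 1 and 0.0595 without WT replicate 2. For Insig1 the edgeR adjusted p was 0.106, 0.137, 0.0848 and 0.0651 without the same libraries and 0.0955 without WT replicate 3. Cyp51, Fdft1 and Idi1 were called with each library left out. In 1 fit with the 12 TRAP libraries, whose larger spread it shares, none of the 5 was called. Over all genes the calls fell from 5960 to 1572 in that fit. The log2 fold change there was 0.47 for Cyp51 (SE 0.180, edgeR adjusted p = 0.124), 0.69 for Fdft1 (SE 0.292, edgeR adjusted p = 0.178) and 0.37 for Idi1 (SE 0.162, edgeR adjusted p = 0.202).

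The other 3 genes were not called. Lss (chr10:76531588-76557138, + strand) read 177, 177 and 174 CPM in WT and 166, 168 and 165 CPM in FI3OE, so that every FI3OE library lay below WT, with a log2 fold change of -0.07 (SE 0.034, edgeR adjusted p = 0.155). Sqle (chr15:59315077-59331192, + strand) read 80.7, 81.8 and 83.0 CPM in WT and 83.6, 78.9 and 86.0 CPM in FI3OE, in overlapping groups, with a log2 fold change of 0.04 (SE 0.040, edgeR adjusted p = 0.529). Srebf2 itself (chr15:82147181-82205379, + strand) read 162, 169 and 175 CPM in WT and 169, 165 and 171 CPM in FI3OE, and its log2 fold change was 0.01 (SE 0.040, edgeR adjusted p = 0.873). Over the 8 genes, 4 lay above WT in every FI3OE library, 1 lay below and 3 overlapped. Groups without overlap were found for 49.8% of all genes tested, with FI3OE above WT for 24.1% and below for 25.7%.

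**Figure D2:**
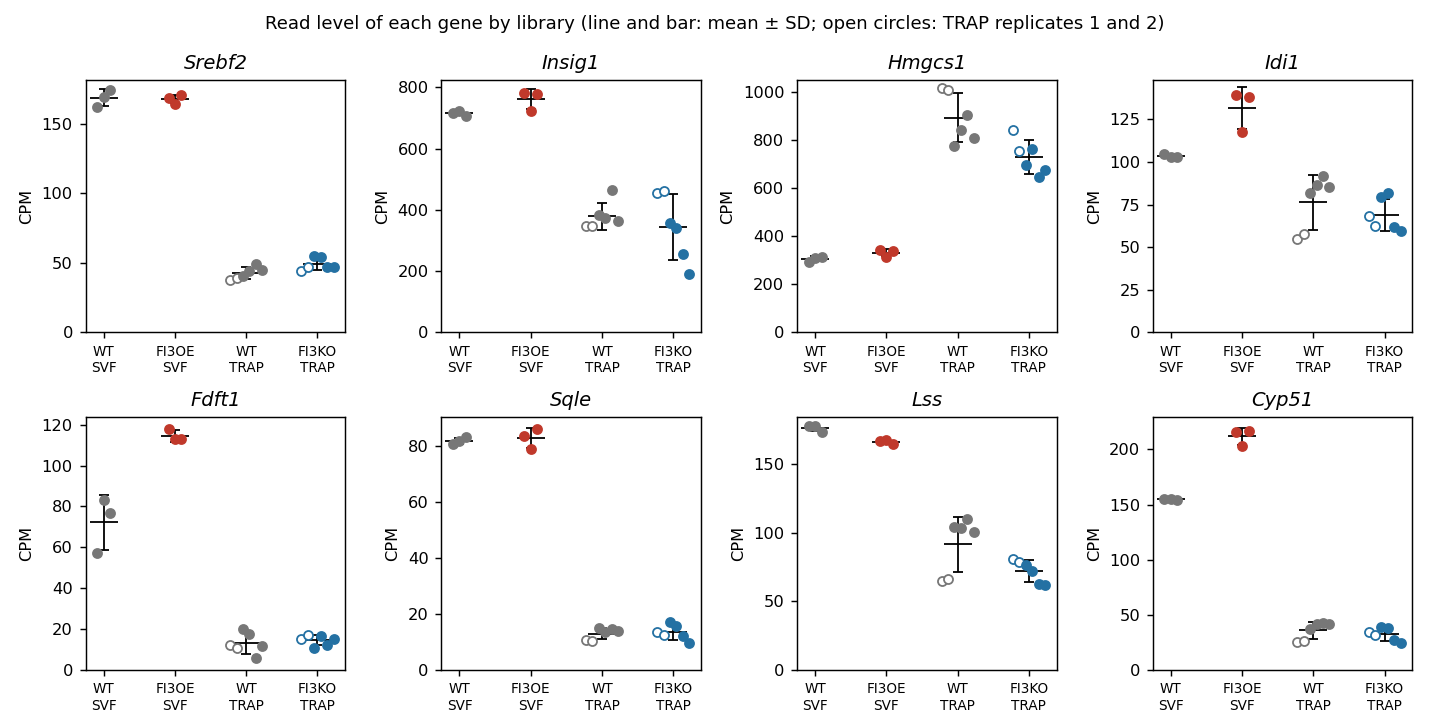
Read level of the 8 genes in CPM by library, with a line at the mean and a bar of 1 SD for each group (3 libraries for each SVF group, 6 for each TRAP group). Open circles are TRAP replicates 1 and 2, and the groups without overlap are WT and FI3OE SVF for Insig1, Idi1, Fdft1, Lss and Cyp51.

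The second comparison asked whether the same genes differed between FI3KO and WT adipocytes in eWAT of mice on the high-fat diet. Srebf2 was the only one of the 8 that passed the test, higher in FI3KO by 1.19 times, and the groups overlapped for all 8. None was called lower, though Hmgcs1 was below WT with an unadjusted p of 0.0284 in edgeR. The DESeq2 Wald test and some of the other fits called it lower, and some of the other fits called Lss lower. Srebf2 makes 1 of 8 genes called by edgeR with Benjamini-Hochberg adjustment over 13624 genes, of which 37.4% were called (19.1% higher and 18.3% lower) and 15.2% had groups without overlap (FI3KO above WT for 5.39% and below for 9.82%). None of the 8 had an absolute log2 fold change of 1 with the call, as 6.61% of all genes did. The median log2 fold change of the 8 genes was -0.10, and that of all genes tested was 0.02.

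Srebf2 ranged from 37.8 to 49.4 CPM in WT TRAP (median 42.2) and from 44.3 to 54.9 CPM in FI3KO TRAP (median 47.0). The log2 fold change was 0.25 (SE 0.069, edgeR adjusted p = 0.0141). With an offset for the average transcript length it was 0.09 (edgeR adjusted p = 0.469), and the share of Srebf2 reads given to transcripts with a retained intron was 10.2 ± 2.41% in WT and 6.79 ± 1.16% in FI3KO (SD, n = 6). Counted over protein-coding transcripts only, which leaves those out, the log2 fold change was 0.29 (edgeR adjusted p = 0.011).

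The enzymes were spread on both sides of WT. Hmgcs1 ranged from 775 to 1017 CPM in WT (median 876) and from 649 to 843 CPM in FI3KO (median 727), a log2 fold change of -0.24 (SE 0.10, edgeR adjusted p = 0.0689). It was called in 7 of 26 other fits. Its adjusted p in edgeR was 0.0223 without FI3KO replicate 1 and 0.0383 without WT replicate 3, but 0.0568 to 0.122 without each of the other libraries, and 0.117 with WT replicates 1 and 2 as 1 library. It was 0.0105 with the replicate set as a term, 0.0396 with the replicate number as a block, and 0.0254 in the fit of all 18 libraries. Lss ranged from 64.7 to 110 CPM in WT (median 102) and from 61.9 to 81.0 CPM in FI3KO (median 74.4), a log2 fold change of -0.29 (SE 0.134, edgeR adjusted p = 0.107). The 2 low WT values of Lss were those of replicates 1 and 2, and its edgeR adjusted p was 0.0283 without WT replicate 1 and 0.0338 without WT replicate 2. With both as 1 library its log2 fold change was -0.37 (edgeR adjusted p = 0.0305). Lss was called lower in 4 of 26 other fits in all.

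Insig1 varied widely, from 346 to 465 CPM in WT (median 368) and from 190.0 to 461 CPM in FI3KO (median 349), with a log2 fold change of -0.09 (SE 0.188, edgeR adjusted p = 0.726). Its lowest libraries were FI3KO replicates 5 (255 CPM) and 6 (190.0 CPM). Cyp51 ranged from 25.6 to 42.4 CPM in WT (median 39.4) and from 24.1 to 38.7 CPM in FI3KO (median 33.1), with a log2 fold change of -0.10 (SE 0.150, edgeR adjusted p = 0.614). Idi1 ranged from 54.8 to 92.1 CPM in WT (median 83.7) and from 59.3 to 81.6 CPM in FI3KO (median 65.4), with a log2 fold change of -0.10 (SE 0.128, edgeR adjusted p = 0.568). For both enzymes the lowest WT libraries were replicates 1 and 2. Sqle was the lowest of the 8 in WT by mean TPM. It ranged from 10.2 to 14.8 CPM in WT (median 13.6) and from 9.47 to 17.1 CPM in FI3KO (median 12.9). Its log2 fold change was 0.09 (SE 0.133, edgeR adjusted p = 0.616). Fdft1 ranged from 5.52 to 19.99 CPM in WT (median 11.9) and from 10.9 to 17.2 CPM in FI3KO (median 14.9), with a log2 fold change of 0.21 (SE 0.240, edgeR adjusted p = 0.528).

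The FI3KO difference of several genes depended on the replicates. In replicates 3 to 6, Lss fell by 0.57 (SE 0.072, edgeR adjusted p = 0.000126), from 100.2 to 110 CPM in WT to 61.9 to 76.5 CPM in FI3KO. In replicates 1 and 2 its log2 fold change was 0.35 (SE 0.076, edgeR adjusted p = 0.0657), with 64.7 and 66.3 CPM in WT and 81.0 and 78.4 CPM in FI3KO. Both FI3KO libraries thus lay above WT in one set, and all 4 lay below WT in the other. Hmgcs1 and Srebf2 were also called in replicates 3 to 6, with log2 fold changes of -0.22 and 0.23 (edgeR adjusted p = 0.0329 and 0.0375), which makes 3 of 8 genes where 50.6% of all genes were called. Insig1 was called in replicates 1 and 2, with a log2 fold change of 0.46 (edgeR adjusted p = 0.0257), where 3.56% of all genes were called, and was at -0.43 in replicates 3 to 6 (edgeR adjusted p = 0.0578). With WT replicates 1 and 2 as 1 library, which is assumed to vary like the FI3KO pair, the values in replicates 1 and 2 were 0.46 for Insig1 (edgeR adjusted p = 0.256) and 0.34 for Lss (edgeR adjusted p = 0.530), 0 of the 8 genes were called (2, Insig1 and Fdft1, had an unadjusted p under 0.05), and 1.79% of all genes were called.

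The difference between the sets was tested as an interaction, the FI3KO effect in replicates 1 and 2 minus that in 3 to 6. It was called for Lss (0.91, edgeR adjusted p = 0.000201), Insig1 (0.89, edgeR adjusted p = 0.0309), Cyp51 (0.72, edgeR adjusted p = 0.0351) and Idi1 (0.53, edgeR adjusted p = 0.0359). This is 4 of 8 genes, where 26.5% of all genes were called (13.7% higher and 12.8% lower, and 11.3% with an absolute value of 1 or more). With WT replicates 1 and 2 counted as 1 library, 1 of the 8 was called, Lss (0.90, edgeR adjusted p = 0.00298), and 14.3% of all genes. The edgeR adjusted p was then 0.105 for Insig1, 0.114 for Cyp51 and 0.119 for Idi1. Hmgcs1 (-0.07) and Srebf2 (0.07) had log2 differences near 0 between the sets and adjusted p of 0.728 and 0.733 in edgeR. The labels name no batch, and what separates the sets was not tested.

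**Figure D3:**
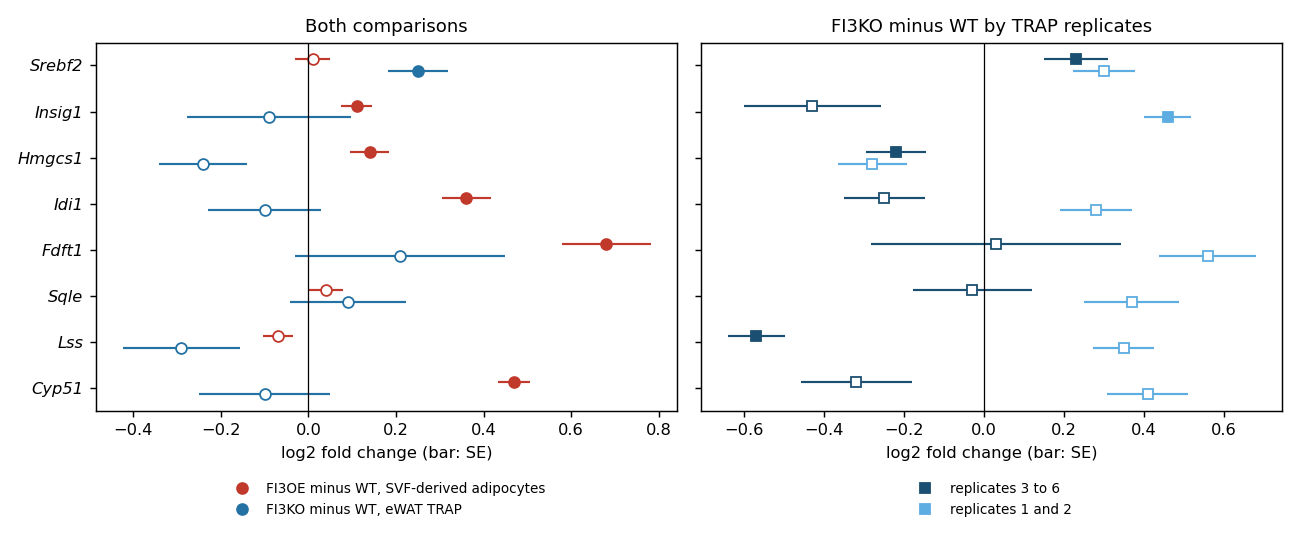
Log2 fold change of each gene with its standard error as a bar, in both comparisons at left and in the TRAP replicate sets at right. Filled points have an adjusted p of 0.05 or less in edgeR, and 4 genes (Insig1, Idi1, Lss and Cyp51) lie on opposite sides of 0 in the 2 replicate sets with a called difference between them.

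Markers of other cells moved with the same sets. The summed level of 10 macrophage markers was 37.7 to 38.1 CPM in WT and 33.7 to 44.3 CPM in FI3KO for TRAP replicates 1 and 2, but 68.9 to 94.6 CPM in WT and 16.1 to 18.6 CPM in FI3KO for replicates 3 to 6. Of the 9 macrophage markers tested over all 12 libraries, 7 were called lower in FI3KO and 1 higher. The 7 fibroblast and progenitor markers summed to 930 to 934 CPM in WT and 910.0 to 979 CPM in FI3KO for replicates 1 and 2, and to 1525 to 2178 CPM in WT and 459 to 856 CPM in FI3KO for replicates 3 to 6. The 5 endothelial markers summed to 57.5 to 88.8 CPM in FI3KO replicates 1 and 2 and to 22.2 to 32.3 CPM in FI3KO replicates 3 to 6, against 30.0 to 31.2 and 19.6 to 36.3 CPM in WT. The 4 epididymal markers summed to 1.39 to 1.45 CPM in FI3KO replicates 1 and 2 and to at most 0.299 CPM in the other TRAP libraries. No macrophage, fibroblast or progenitor marker was at or under 3 reads throughout a group. In these bulk libraries fewer cells of a type and less RNA per cell cannot be told apart, and the part of these cells in the sterol gene values was not tested.

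The effects in the 2 experiments were compared in 1 fit of all 18 libraries, as the FI3OE effect minus the FI3KO effect. This difference was called for 0 of the 8 genes, where 22.7% of 17289 genes were called (12.9% higher and 9.73% lower, and 7.96% with an absolute value of 1 or more), and 4 of them had an unadjusted p under 0.05 in edgeR. It was also 0 with DESeq2 size factors, with robust dispersion and without the count filter. Those 4 were Cyp51 (0.59, edgeR adjusted p = 0.0668), Hmgcs1 (0.39, edgeR adjusted p = 0.0612), Idi1 (0.47, edgeR adjusted p = 0.0976) and Srebf2 (-0.23, edgeR adjusted p = 0.134). The rise of Cyp51, Fdft1, Idi1, Hmgcs1 and Insig1 in FI3OE and their values in FI3KO TRAP were therefore not shown to differ.

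The rest of the pathway was described with 39 further genes in 3 lists, of which 38 were tested in the cultured cells. In FI3OE, 19 of the 38 were called higher and 7 lower, where 20.2% of all genes were called higher and 16.8% lower. Among 16 other synthesis enzymes 10 were higher and 1 was lower, against the same shares. The largest rises were those of Acat2 (log2 fold change 0.81), which makes acetoacetyl-CoA, and Dhcr7 (0.81), which acts in the last steps to cholesterol. Pmvk, the phosphomevalonate kinase, rose by 0.80 and the sterol reductase Hsd17b7 by 0.43. The enzyme called lower was the sterol isomerase gene Ebp, at -0.28. In the fit of all 18 libraries the counts over the 38 genes fell to 6 higher and 2 lower, and the edgeR adjusted p of Hsd17b7 was 0.0648. The count of all genes called fell there too, from 5960 to 1572. With the 6 enzymes among the 8 genes, 14 of 22 synthesis enzymes were higher in FI3OE and 1 was lower.

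Of 11 genes of SREBP processing and sterol sensing, 3 were higher and 3 lower in FI3OE, against 20.2% and 16.8% of all genes. Among those lower were Insig2 (-0.22) and Srebf1 (-0.15), which encodes SREBP1. Ch25h, an interferon-inducible gene whose product makes an oxysterol, had a log2 fold change of 0.17 (edgeR adjusted p = 0.204). It read 8.66 to 10.98 CPM in WT and 10.9 to 11.5 CPM in FI3OE. Of 11 genes of sterol uptake, transport, storage and efflux tested, 6 were higher, with Npc2 at 0.75, and 3 were lower. The genes called lower were Npc1 (-0.48), Tmem97 (-0.26) and the cholesterol exporter gene Abca1 (-0.20). In the fit of all 18 libraries the edgeR adjusted p was 0.251 for Insig2, 0.40 for Srebf1, 0.442 for Tmem97 and 0.433 for Abca1. NPC1 and NPC2 act together in cholesterol export from lysosomes, and their genes moved in opposite directions here.

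In TRAP, 36 of the 39 genes were tested, and 6 were called higher and 11 lower in FI3KO, where 19.1% of all genes were called higher and 18.3% lower. Insig2, the second anchor of SCAP, ranged from 104 to 132 CPM in WT (median 116) and from 146 to 184 CPM in FI3KO (median 180). Its groups did not overlap, and the log2 fold change was 0.62 (SE 0.083, edgeR adjusted p = 0.000257). Also called higher were Lbr (0.58), Mbtps1 (0.30), the gene of the protease that first cuts SREBPs, Srebf1 (0.19) and Acat2 (0.18). The call of Srebf1 was lost when any 1 of 7 of the 12 libraries was left out (edgeR adjusted p = 0.0536 to 0.0879), with the replicate block (0.0927), with the length offset (0.193) and without the count filter (0.0857).

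Of 10 genes of SREBP processing and sterol sensing tested, 4 were higher in FI3KO and 2 lower, Nr1h3 (-0.26), which encodes a liver X receptor, and Rnf139 (-0.17). Of the 16 other synthesis enzymes, 2 were higher and 6 lower in FI3KO, against 19.1% and 18.3% of all genes. Late enzymes were among those called lower, with Dhcr7 at -0.83, Hsd17b7 at -0.68 and Nsdhl at -0.63. In replicates 1 and 2 only, Hsd17b7 was at -0.34 (edgeR adjusted p = 0.156) and Nsdhl at -0.28 (edgeR adjusted p = 0.501). The difference between the sets was called for neither Hsd17b7 (edgeR adjusted p = 0.0726) nor Nsdhl (edgeR adjusted p = 0.167). Dhcr7 ranged from 20.8 to 49.3 CPM in WT (median 42.0) and from 16.9 to 24.1 CPM in FI3KO (median 19.9), and its lowest WT libraries were replicates 1 and 2. Its log2 fold change was -0.10 in replicates 1 and 2 only (edgeR adjusted p = 0.631, and 0.905 with the WT pair as 1 library). Hsd17b7 ranged from 27.7 to 45.1 CPM in WT (median 35.5) and from 18.4 to 24.4 CPM in FI3KO (median 20.9), with no overlap. Of 10 uptake, transport, storage and efflux genes tested, 3 were lower. They were Tmem97 (-0.69), Soat1 (-0.59), which encodes a cholesterol esterifying enzyme, and Lipa (-0.30), a lysosomal esterase gene. The call of Soat1 was lost when any 1 of 6 of the 12 libraries was left out (edgeR adjusted p = 0.0515 to 0.0565), with the replicate block (0.102) and with the length offset (0.123). Its log2 fold change in replicates 1 and 2 only was 0.31 (edgeR adjusted p = 0.147), and the difference between the sets was called (1.32, edgeR adjusted p = 0.00015). Ch25h had at most 1 read in any TRAP library, against 207 to 424 reads in the cultured cells.

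**Figure D4:**
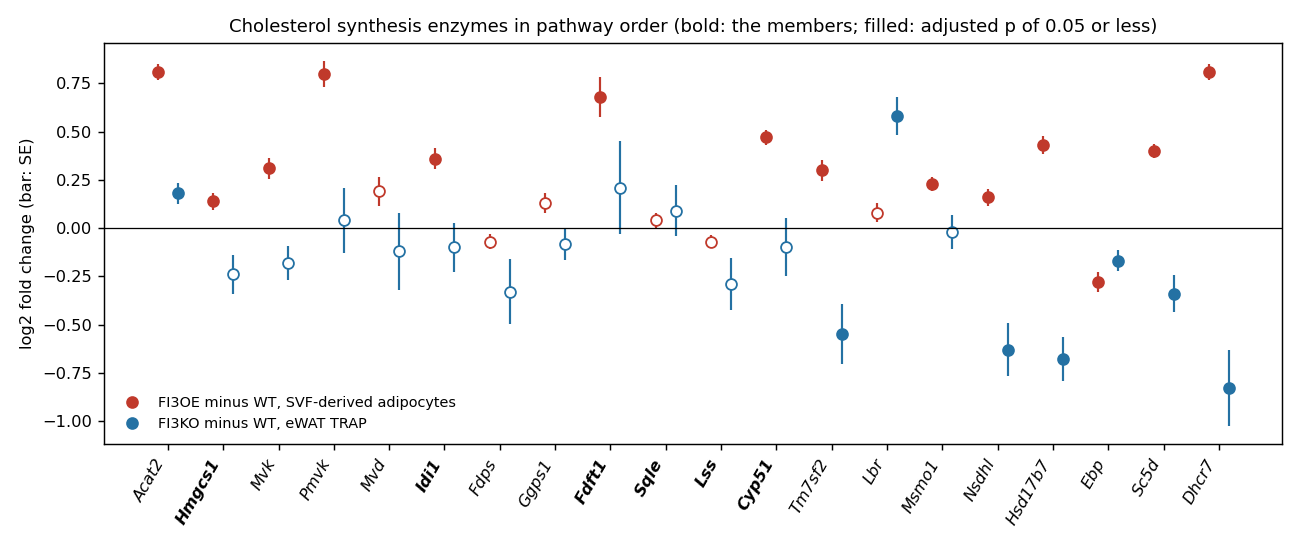
Log2 fold change of 20 cholesterol synthesis enzymes in pathway order with the standard error as a bar, for FI3OE against WT SVF-derived adipocytes and FI3KO against WT eWAT TRAP. Names in bold are the 6 enzymes of the list described here, filled points have an adjusted p of 0.05 or less in edgeR, and of the enzymes drawn 13 are called higher and 1 lower in FI3OE, and 2 higher and 6 lower in FI3KO TRAP.

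The difference between the FI3OE and FI3KO effects was called for 9 of the 16 other enzymes, where 22.7% of all genes were called. It was above 0 for 8 and below 0 for Lbr (-0.49, edgeR adjusted p = 0.010). Its absolute value was over 1 on the log2 scale for 2, Dhcr7 (1.65, edgeR adjusted p = 0.00071) and Hsd17b7 (1.12, edgeR adjusted p = 0.000191). For Insig2 it was -0.83 (edgeR adjusted p = 0.0002). The balance of the INSIG genes per transcript length, the ratio of Insig1 to Insig2 TPM, was 8.45 ± 0.163 in WT and 10.7 ± 0.671 in FI3OE SVF-derived adipocytes (SD, n = 3). The FI3OE libraries, at 9.92 to 11.2, lay above the WT ones, at 8.26 to 8.57. In TRAP the ratio was 3.10 ± 0.635 in WT and 1.96 ± 0.745 in FI3KO (SD, n = 6), with ranges of 2.31 to 3.95 and 1.07 to 2.96 that overlapped. By set it was 2.31 to 2.41 in WT and 2.67 to 2.96 in FI3KO for replicates 1 and 2, and 3.13 to 3.95 in WT and 1.07 to 1.91 in FI3KO for replicates 3 to 6, so FI3KO lay above WT in the first set and below it in the other. The ratio of Srebf1 to Srebf2 TPM was 4.97 ± 0.392 in WT and 4.32 ± 0.260 in FI3OE, and 10.2 ± 1.43 in WT and 10.7 ± 1.21 in FI3KO TRAP, with overlap between WT and FI3KO.

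The values of Fdft1 carry a further limit. Its exons share 774 bases with Ctsb, a cathepsin gene on the opposite strand (chr14:63145150-63145923, GRCm38), the kit does not mark strand, and Ctsb had a mean level of 2495 CPM over the 18 libraries. The full-length transcript Fdft1-201 was estimated at 0 reads in 3 of the 12 TRAP libraries. Transcripts with a retained intron took 29.2 ± 18.5% of Fdft1 reads in WT TRAP and 33.4 ± 15.5% in FI3KO TRAP (SD, n = 6), against 3.26 ± 1.24% in WT SVF-derived adipocytes (SD, n = 3). Ctsb rose in FI3OE by 0.22 on the log2 scale (edgeR adjusted p = 0.0003), against 0.68 for Fdft1. Cyp51 shares 166 exon bases with Akap9 on the opposite strand, and Hmgcs1, Lss and Idi1 share 557, 381 and 323 with annotated genes there.

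The transcript makeup of Lss also moved. Retained-intron transcripts took 24.5 ± 2.29% of its reads in WT and 17.5 ± 0.798% in FI3OE SVF-derived adipocytes (SD, n = 3), with no overlap (22.3 to 26.9% and 16.9 to 18.4%). Counted over protein-coding transcripts alone, its log2 fold change in FI3OE was 0.02 (edgeR adjusted p = 0.638) in place of -0.07, and the count of the 8 genes called higher was 3. Calls over all genes were also fewer in that fit than the 5960 with all transcripts counted. In TRAP the retained-intron share of Lss was 24.2 ± 1.93% in WT and 25.6 ± 3.19% in FI3KO. For Insig1, Hmgcs1 and Idi1 protein-coding transcripts held at least 98.3% of the reads in every library.

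With group means removed, some of the enzymes varied together. Over all 18 libraries, of which 12 are TRAP, log2 CPM of Cyp51 and Idi1 had a Pearson r of 0.94, that of Sqle and Cyp51 0.90, that of Lss and Cyp51 0.88, that of Idi1 and Sqle 0.86 and that of Idi1 and Lss 0.82. These are the 5 of 28 pairs over 0.8, and all are among the same 4 enzymes. Hmgcs1 had a negative r with 6 of the other 7 genes over all 18 libraries, down to -0.41 with Lss and Idi1. Srebf2 had an r of 0.74 with Idi1, 0.65 with Cyp51 and 0.08 with Insig1. In the 6 cultured libraries alone, Lss was negative with all 7 others (-0.29 with Cyp51 and -0.54 with Idi1), and Hmgcs1 was positive with 6 of 7 (0.84 with Sqle). There 7 of the 28 pairs were over 0.8, among them Insig1 with Cyp51 (0.98) and with Idi1 (0.96), and Srebf2 had an r of 0.41 with Insig1 and 0.32 with Idi1. These values rest on few libraries, and differences in correlation between the experiments were not tested. The TRAP libraries share the split between TRAP replicates 1 and 2 and 3 to 6, which enters these values.

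The genes most like the mean profile of the 8 over those 18 libraries, of 13085 ranked, were Eif1a (r = 0.95), Tmem38b (0.94), Tmem100 (0.94), Col3a1 (0.94) and Fgfr1op (0.93). Col3a1 is also one of the fibroblast and progenitor markers. Among the 36 pathway genes in that ranking Fdps, the farnesyl diphosphate synthase gene, had an r of 0.88 (rank 55), Srebf1 one of -0.49 and Insig2 one of -0.45.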

How the data were processed

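For each of 18 libraries the authors deposited Salmon estimates for 118733 transcripts, as estimated counts, TPM and effective length. Per the paper's methods, reads were trimmed with bcl2fastq and fastp and quantified with Salmon 1.4.0 (submitters' processing notes) on GENCODE M24 of GRCm38, correcting for sequence and fragment GC bias. Ribosomal RNA was depleted and tagmentation libraries were made, which do not mark strand.

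Estimated counts were summed per gene with GENCODE M21, which held 117850 of the transcripts (99.3%). The unmatched ones, kept as genes of their own, took 0.38 to 1.08% of reads. CPM is the count over the library total, and TPM was summed per gene for levels between genes. Counts were rounded and the experiments were fitted separately in edgeR 4.0.16 (R 4.3.3), with filterByExpr, TMM, the quasi-likelihood test and p-values adjusted after Benjamini and Hochberg over all genes tested. A call is an adjusted p of 0.05 or less. The study's own rule also asked for a log2 fold change of at least 1, which was applied here to the absolute value. Per the labels the samples are biological replicates. Where separate cultures or animals are not stated, p-values measure the spread between libraries.

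Named genes were the 8 genes, Srebf1, Insig2, Ch25h and Irf3, in each comparison up to 5 called genes of the 3 pathway lists per direction with the largest change, and the 5 genes most correlated with the mean standardized log2 CPM (0.5 added) of the 8. Lipa, Nr1h3, Rnf139, Acat2, Npc1 and Npc2 in TRAP, Fdps and Ctsb were named after their values were seen. Some genes that this rule or the lists hold are not reported here, though list counts include them. The genes and lists were chosen with earlier results of these data known.

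Alternatives were the Wald test of DESeq2 1.42.0 or its size factors, no count filter, at least 10 counts in every library, a length offset from effective lengths and TPM, all 18 libraries in 1 fit, robust dispersion, leaving out each library, a block for the replicate number, a fold change cutoff, and for TRAP the replicate sets. Chosen after seeing the data were protein-coding transcripts only, and WT TRAP replicates 1 and 2 as 1 library, over all TRAP libraries and within replicates 1 and 2. The fits were also tested on simulated data. Epididymal, mesothelial and endothelial markers were also checked. They summed to at most 1.45, 18.5 and 88.8 CPM, and 1 of the endothelial genes was called, higher in FI3KO TRAP. Of the 8 adipocyte markers 2 were called higher and 3 lower in FI3OE, and 2 higher and 1 lower in FI3KO TRAP. Of the 10 macrophage and 7 fibroblast and progenitor markers, 1 and 2 were higher and 2 and 2 lower in FI3OE.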

Additional observations from a re-analysis of the deposited data

Results flagged for a closer look

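In groups of 6 TRAP libraries, a library was marked when its gap to the nearest other library was large against the range of the group, which chance alone gives for about 1 in 20 groups. Of 48 groups checked, 4 had such a library, where 2.4 are expected by chance. Insig1 read 465 CPM in WT replicate 5, above 346 to 385 CPM in the others. Insig2 read 146 CPM in FI3KO replicate 2, below 177 to 184 CPM. In FI3KO replicate 1, Npc2 read 1261 CPM, above 753 to 938 CPM, and Npc1 read 27.4 CPM, below 38.2 to 43.1 CPM.

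The FI3KO effect differed between TRAP replicates 1 and 2 and replicates 3 to 6 by edgeR's interaction test for 8 of the 17 named genes tested, where 26.5% of all genes were called. With WT replicates 1 and 2 as 1 library it was called for 3 of them, Lss, Dhcr7 and Soat1, where 14.3% of all genes were. The effect in replicates 1 and 2 minus that in 3 to 6 was 0.91 for Lss, 0.89 for Insig1, 0.72 for Cyp51 and 0.53 for Idi1 on the log2 scale. It was 0.99 for Dhcr7 and 1.32 for Soat1, and -0.41 for Insig2 and -0.30 for Srebf1. The 17 leave out Irf3, genes named only for the cultured cells and those named after their values were seen. Of those left out, Npc2 (0.74, edgeR adjusted p = 0.00721), Fdps (1.08, edgeR adjusted p = 0.000922) and Ctsb (-0.42, edgeR adjusted p = 0.0381) were called. So were Pmvk (0.91, edgeR adjusted p = 0.0257) and Ebp (0.26, edgeR adjusted p = 0.0466). Irf3, Abca1, Lipa, Nr1h3, Rnf139, Acat2 and Npc1 were not called. WT replicates 1 and 2, the WT libraries of the smaller set, lie closer to each other than any other WT TRAP pair.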

How the results depend on the processing

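Of the 5 genes called higher in FI3OE, 3 were called with the length offset and 3 with protein-coding transcripts only, 0 in the fit of all 18 libraries, and 3 to 5 when single libraries were left out. In the fit of all 18 libraries the pathway counts in FI3OE fell to 6 higher and 2 lower and the count over all genes to 1572, against 3799 with the length offset. With protein-coding transcripts only, the count over all genes in FI3OE was below 5960 as well. The fold change cutoff of 1 left 583 genes in the cultured cells and 901 in TRAP, with 0 of the 8 genes and 0 pathway genes in any direction. In TRAP the length offset left 0 of the 8 genes higher. The count of the 8 called lower in TRAP was 1 with the DESeq2 Wald test, the fit of all 18 libraries, the set as a term and WT replicates 1 and 2 as 1 library, 2 in replicates 3 to 6 only, and 0 to 1 when single libraries were left out. The 1 gene called lower was Lss with WT replicates 1 and 2 as 1 library. It was Hmgcs1 in the Wald test, the fit of all 18 libraries and with the set as a term. In replicates 1 and 2 only, 500 genes in all were called, with 1 pathway gene higher and 0 lower. With WT replicates 1 and 2 also as 1 library in that fit, 265 genes were called, 0 of the 8 and 0 pathway genes in any direction (unadjusted p under 0.05 in edgeR for 2 of the 8). The difference between sets was called for 1 of the 8 genes with WT replicates 1 and 2 as 1 library. By CPM in place of TPM, 3 of 8 genes kept their rank in WT SVF and 4 in WT TRAP.

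Replicate numbers did not pair the samples, since the correlation of same-numbered deviations was -0.03 to 0.09 in the cultured cells and -0.38 to 0.07 in TRAP. With the replicate number as a block, 1 of the 8 genes (Hmgcs1) was called lower in TRAP, and the pathway genes called lower numbered 7. A library correlated best with its own number for 3 of 6 libraries in the cultured cells and 0 of 12 in TRAP.

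Of the alternative values for single genes, 691 kept their direction and call, 62 lost the call, 11 gained it and 19 turned sign. Signs that turned were those of Srebf2 in FI3OE (-0.00 with the length offset, -0.03 with protein-coding transcripts and -0.02 without WT replicate 1, with a range of -0.02 to 0.04 over single libraries left out) and of Lss in FI3OE (0.02 with protein-coding transcripts). In TRAP replicates 1 and 2 only, the log2 fold change was 0.46 for Insig1, 0.28 for Idi1, 0.35 for Lss, 0.41 for Cyp51, 0.31 for Soat1 and -0.00 for Srebf1. With the WT pair as 1 library there, these were 0.46 for Insig1, 0.27 for Idi1, 0.34 for Lss, 0.40 for Cyp51, 0.31 for Soat1 and -0.01 for Srebf1. Insig1 in TRAP was at 0.02 without FI3KO replicate 6 (-0.21 to 0.02 over single libraries left out), Sqle at -0.03 in replicates 3 to 6 only, and Irf3 in TRAP at 0.71 with the length offset. Beyond the smaller numbers of libraries or the added cutoff, the cause was not tested. Among the 8 genes, Fdft1 had the fewest reads in a TRAP library, 142.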
